A study of Mus musculus with 6 samples.

Results

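Cell cycle and DNA replication transcripts were examined in mouse liver after a high-fat or a low-fat diet. The group held 37 genes for cyclins and their kinases, kinase inhibitors, the replication machinery, deoxynucleotide supply and mitosis. A member was taken to be measured when the platform's gene table gave a probe set its symbol and no other symbol. On that rule 34 of the 37 genes had a probe set, 50 probe sets in all among the 12488 of the array. Ccnb1, Tyms and Bub1b had none and were not analysed here.

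The livers came from mice of the inbred strain C57BL/6 that had eaten a high-fat Western-style diet or a low-fat diet for 12 weeks, with 3 Affymetrix arrays per diet. The keywords of the labels mention LDL receptor deficiency, but each array of either diet is labelled C57BL/6 and no mutant allele is given for it. The labels give no age, sex, time of day or diet composition. The labels also do not say whether an array holds 1 mouse or a pool, so p-values measure the spread between arrays, which may be technical. The number of arrays limits the precision.

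A dividing cell enters the cycle when D-type cyclins with Cdk4 inactivate the retinoblastoma protein and free E2F factors, which turn on the genes of DNA synthesis. Licensing by Cdc6 and the ring of Mcm proteins marks the origins, Pcna and Lig1 work at the fork, and thymidine kinase, thymidylate synthase and ribonucleotide reductase supply the building blocks. Cdk1 with cyclins A and B then drives mitosis. Most hepatocytes of an adult liver rest outside the cycle and return to it after loss of tissue.

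Promoters of these genes are known to carry sites for E2F factors, for the factor NF-Y (the CCAAT box) and, in genes of late cycle stages, the cell cycle genes homology region (CHR). The choice of members did not use these elements. They were searched because such genes are known to carry them, so a high share among the members is a description and not independent support. RefSeq windows of mouse build GRCm38.p6, from 250 bases before to 50 bases after a start site, were found for 31 of the 37 genes (36 windows). On either strand, TTTGGCGC, TTTCCCGC, TTTGCCGC or TTTCGCGC was searched as the E2F site, CCAAT as the CCAAT box and TTTGAA as the CHR. The searched motifs do not contain one another. An E2F site was in 8 of the 36 member windows (22.2%) against 2.26% of all 32851 windows. The 8 genes were Cdc6, Cdk1, Cdk2, Lig1, Mcm3, Mcm5, Mcm6 and Mcm7, all kinases or genes of licensing and the fork. A CCAAT box was in 24 windows (66.7%, against 37.4% of all) and a CHR in 10 (27.8%, against 17.9%). In the 60-base stretches below, from upstream of the start site and read on the gene's strand, capitals mark these matches, and the 2 E2F matches of each of the first 2 stretches overlap.
Mcm5, chr8:75109339-75109398, plus strand: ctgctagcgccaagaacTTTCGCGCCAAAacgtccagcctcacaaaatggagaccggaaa
Mcm6, chr1:128359766-128359825, minus strand: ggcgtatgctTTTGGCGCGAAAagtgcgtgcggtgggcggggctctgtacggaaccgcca
Cdk1, chr10:69352943-69353002, minus strand: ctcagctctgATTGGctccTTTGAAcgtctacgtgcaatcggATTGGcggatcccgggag
Tk1, chr11:117826045-117826104, minus strand: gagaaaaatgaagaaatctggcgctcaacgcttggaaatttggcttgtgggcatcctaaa
Mcm5 and Mcm6 carry E2F sites, and Cdk1 has a CHR between a pair of inverted CCAAT boxes. Tk1 had none of the searched letters in its whole window, and most member windows had no E2F match either. Only exact letters were searched, so a variant of a site would be missed. A link to the Tk1 diet difference below was not tested. A match is a description of letters and not of binding.

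Of the members known to mark dividing cells, Top2a, Cdk1, Aurkb and Bub1 gave little signal in either diet, and others gave more. Intensities are linear values that had been scaled per array, and 68.9, the 30th percentile of all intensities of the 6 arrays, was used as a floor. Probe sets above the floor on 3 or more of the 6 arrays entered the test, which held for 35 of the 50 member probe sets (70.0%, against 72.0% of all probe sets without controls) and for 26 of the 34 genes. The 8 genes that could not be tested were Cdk1, Cdkn1b, Mcm6, Rrm1, Aurkb, Bub1, Birc5 and Top2a. In contrast, Ccna2, Ccnb2, Cdc20, Rrm2 and Mki67 161931_r_at, also markers of dividing cells, were above the floor on all 6 arrays. The other Mki67 probe set was above it on 1 array only, and Ccna2 stood at 77.4 on high-fat arrays 1 and 2. The floor is a percentile and not a limit of detection, so a value above it does not by itself show dividing cells. The dim genes alone therefore do not describe cell division in these livers. Intensities of different probe sets are not comparable as transcript levels, so each is read only against the floor and between arrays. Top2a, the topoisomerase that untangles chromosomes, stood at 13.1, 30.8 and 18.6 on high-fat arrays 1 to 3 and at 15.7, 16.2 and 17.9 on low-fat arrays 1 to 3. The mitotic kinase gene Cdk1 gave 23.8, 56.6 and 58.4 on the high-fat diet and 24.5, 41.1 and 60.3 on the low-fat diet. Both genes were under the floor on all 6 arrays, and their arrays overlapped between the diets.

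Aurkb, the kinase of the chromosomal passenger complex, ran from 38.2 to 44.7 over the 6 arrays, and the 3 probe sets of the spindle checkpoint kinase gene Bub1 ran from 3.2 to 48.5. In all, 9 of the 50 probe sets lay at or under the floor on every array. The same share over all probe sets was not counted, so this count is not read as low or high. Birc5, the survivin gene, was above it on 2 low-fat arrays, at 141.7 and 112.1, while the other low-fat array gave 35.8 and the high-fat arrays gave 68.3, 27.8 and 66.2. Mcm6, a subunit of the replicative helicase, was above the floor on low-fat array 1 alone, at 87.4, with 11.8 to 34.3 on the other 5 arrays. Of the 2 probe sets of Rrm1, the large subunit of ribonucleotide reductase, neither was above the floor on more than 2 arrays. No order between the diets can be read from values under the floor.

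**Figure D1:**
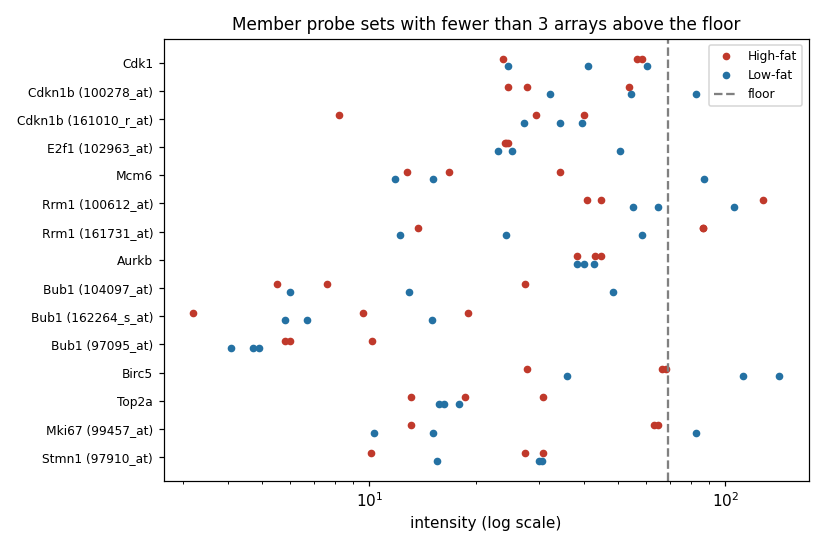
Intensity (log axis) of the 15 member probe sets that were above the floor on fewer than 3 arrays, with 1 point per array, high-fat in red and low-fat in blue, and the floor of 68.9 dashed. Top2a, Cdk1, Aurkb and all 3 Bub1 probe sets lie wholly to the left of the floor.

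Between the diets, 1 of the 35 tested member probe sets changed: a Tk1 probe set was lower on the high-fat diet. The test was limma's moderated test of high-fat minus low-fat diet over all 8950 tested probe sets, two-sided, with Benjamini-Hochberg adjustment and a threshold of 0.05. It called 0.827% of all probe sets in either direction (0.402% as higher and 0.425% as lower) and 2.86% of the member probe sets, which is 1 probe set. At an unadjusted p under 0.05 there were 3 member probe sets (8.57%, against 9.07% of all). Of these 0 were higher, against 4.82% of all, and 3 were lower on the high-fat diet, against 4.26% of all. High-fat and low-fat arrays were fully separated in 5 member probe sets (14.3%), against 14.1% of all tested. The members' shares by unadjusted p and by overlap were thus near the background. In bulk liver, fewer cells of a type and less RNA per cell cannot be told apart.

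With 1 probe set per gene, the one with the highest mean, the 26 tested genes had a median log2 fold change of -0.03, where the 6557 tested genes had 0.01. Of the 26, 12 were above 0 and 14 below, and 51.3% of all genes were above 0. These 26 are not all the members, since 8 were too dim. Of the 35 member probe sets, 30 lay within 1.5-fold (85.7%, against 91.1% of all) and 1 differed by 2-fold or more, which 1.94% of all probe sets did. The median standard error of the log2 fold change was 0.29 for member probe sets and 0.24 for all.

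**Figure D2:**
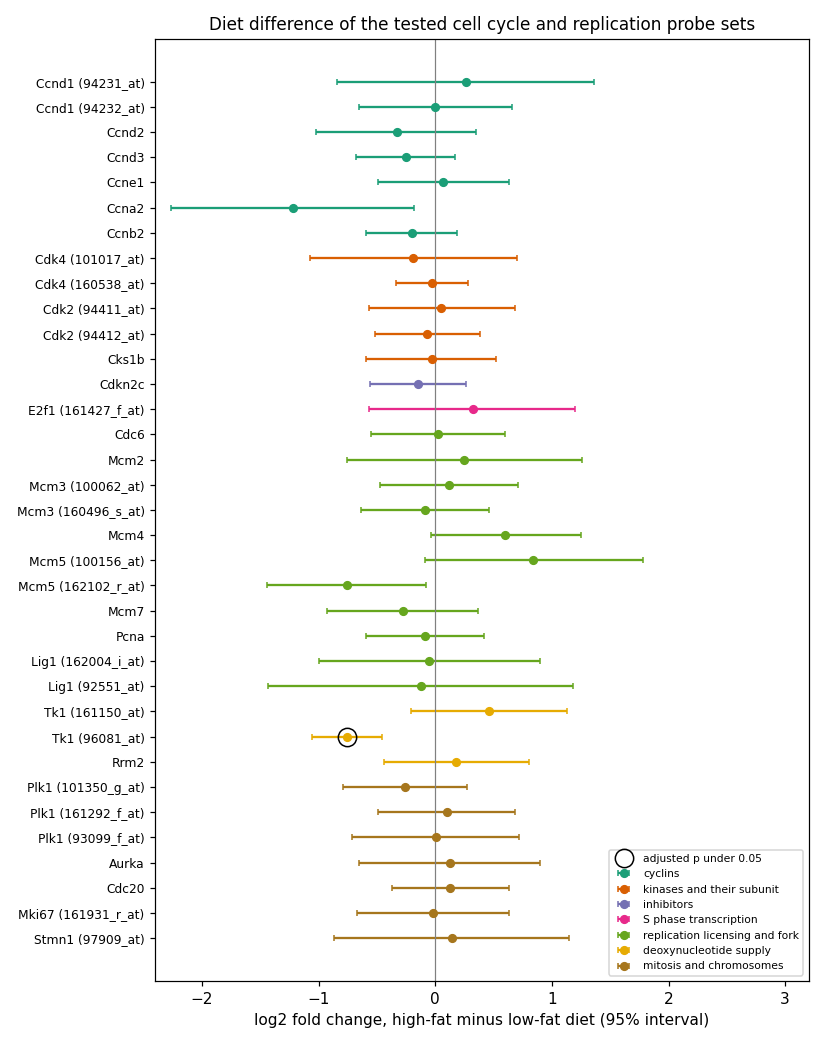
Log2 fold change, high-fat minus low-fat diet, with limma's 95% interval for the 35 tested member probe sets, coloured by role, with the probe set's ID where a gene has several. The ring marks the called Tk1 probe set at -0.76, and the 2 probe sets of Tk1 and of Mcm5 lie on opposite sides of 0.

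Thymidine kinase, encoded by Tk1, phosphorylates thymidine and is a classical S phase transcript. Its probe set 96081_at gave 595.7, 698.2 and 716.7 on the high-fat arrays and 1089.1, 1161.5 and 1146.7 on the low-fat arrays. Each high-fat array was below each low-fat array, by a wide margin against the spread within a diet. The means were 670.2 ± 65.2 (SD, n = 3) and 1132 ± 38.3 (SD, n = 3), a fall of 1.69-fold on the high-fat diet. The log2 fold change was -0.76 ± 0.13 (SE), with a 95% interval from -1.06 to -0.46 and a limma adjusted p of 0.0415. The call was lost without any 1 of the 6 arrays: adjusted p-values then ran from 0.0606 without high-fat array 3 to 0.178 without low-fat array 2, with log2 fold changes from -0.81 to -0.68. It was also lost without a filter on dim probe sets (adjusted p = 0.126) and without a trend of the variance on intensity (0.164). These 2 losses are not particular to Tk1: calls over all probe sets fell from 74 to 8 and to 20. Without the filter, probe sets at the floor on every array, which have no spread, enter the variance model.

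The other Tk1 probe set, 161150_at, did not pass, and its mean difference had the opposite sign. It gave 76.6, 129.8 and 122.9 on the high-fat arrays and 38.4, 43.1 and 98.9 on the low-fat arrays. Low-fat arrays 1 and 2 lay under the floor, and low-fat array 3 fell among the high-fat arrays. The log2 fold change was 0.46 ± 0.30 (SE), with a 95% interval from -0.21 to 1.13 and a limma adjusted p of 0.745, and it was 0.97 with the floor at the 10th percentile. Within each array, the floored log2 value of 96081_at minus that of 161150_at was 2.96, 2.43 and 2.54 on the high-fat diet and 3.98, 4.08 and 3.54 on the low-fat diet. The diets differed in it by -1.22 without overlap, with an exact two-sided permutation p of 0.1, the smallest that 3 arrays against 3 allow. This difference does not by itself show a rise of 161150_at: with the floor at the 50th percentile, where 161150_at lies wholly at the floor, it was -0.76, the value of 96081_at alone, with the same p, and without the floor it was -1.73.

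Of the other enzymes of deoxynucleotide supply, only Rrm2, the small subunit of ribonucleotide reductase, could be tested. It gave 194.6, 214.6 and 195.6 on the high-fat arrays and 147.7, 152.7 and 248.4 on the low-fat arrays. The log2 fold change was 0.18 ± 0.28 (SE, limma adjusted p = 0.922). The low-fat arrays lay on both sides of the high-fat ones, and the 95% interval ran from -0.44 to 0.80.

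**Figure D3:**
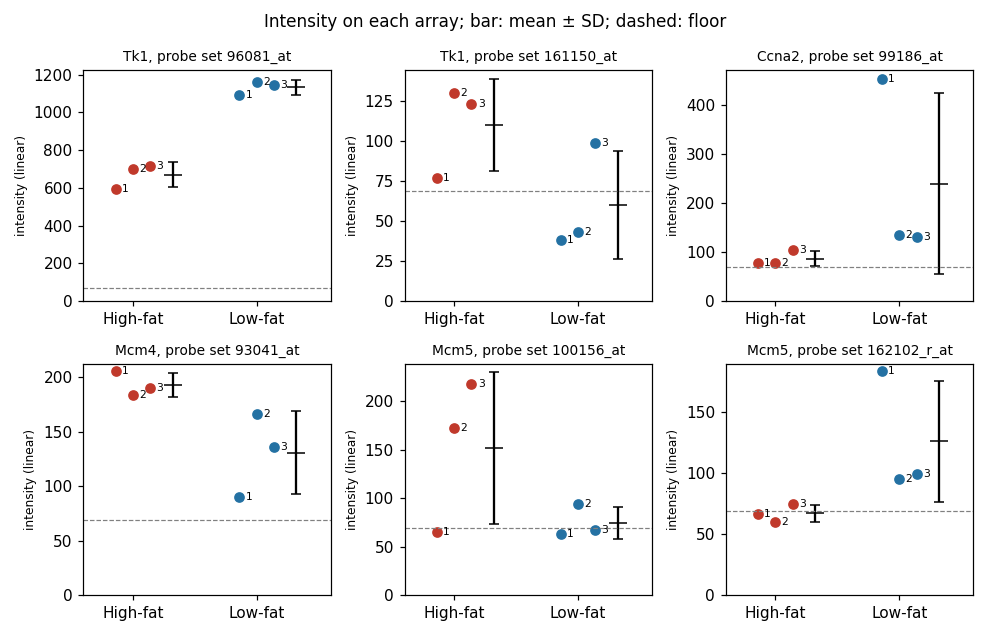
Linear intensity on each array for 6 probe sets of Tk1, Ccna2, Mcm4 and Mcm5, with the array number beside each point, the mean ± SD of the 3 arrays as a black bar and the floor of 68.9 dashed. The arrays of the diets do not overlap for Tk1 96081_at, Ccna2, Mcm4 and Mcm5 162102_r_at, and low-fat array 1 is the highest or lowest array for Ccna2, Mcm4 and both Mcm5 probe sets.

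Cyclin transcripts did not pass the test: 0 of 7 probe sets of 6 genes were called by limma, and 1, that of Ccna2, had an unadjusted p under 0.05. Ccna2 encodes cyclin A, the partner of Cdk2 and Cdk1 in S phase and early mitosis. Its probe set gave 77.4, 77.4 and 104.7 on the high-fat arrays and 452.3, 134.5 and 131.4 on the low-fat arrays. The high-fat arrays lay close to the floor and below every low-fat array, and low-fat array 1 stood far above the rest. The log2 fold change was -1.22 ± 0.46 (SE), the largest in size among the tested members, with a limma adjusted p of 0.447. Without low-fat array 1 it was -0.64 (adjusted p = 0.700).

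The D-type cyclins, which couple growth signals to entry into the cycle, were above the floor on all arrays except 1 value of Ccnd1 94231_at. Ccnd3 gave 453.0, 610.4 and 650.2 on the high-fat diet and 774.1, 667.0 and 590.1 on the low-fat diet, a log2 fold change of -0.25 ± 0.19 (SE, limma adjusted p = 0.792). Ccnd2 gave 136.8, 97.5 and 168.1 against 216.7, 144.1 and 143.3, with a log2 fold change of -0.33 ± 0.30 (SE, adjusted p = 0.845). For Ccnd1, the D-type cyclin induced in regenerating liver, probe set 94232_at gave 278.2, 469.8 and 563.1 against 324.3, 513.1 and 439.6. The diets overlapped for all 3 genes, and the arrays numbered 1 held the lowest Ccnd1 value of each diet. The log2 fold change of Ccnd1 94232_at was 0.00, with a 95% interval from -0.65 to 0.66 that leaves room for a change of over 1.5-fold in either direction.

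Ccnd1 probe set 94231_at ordered the 3 arrays of each diet as 94232_at did, at 53.9, 177.5 and 277.2 on the high-fat and 87.6, 160.1 and 139.8 on the low-fat diet (log2 fold change 0.26 ± 0.49, SE). Ccnb2, a B-type cyclin of mitosis, gave 403.4, 345.9 and 410.4 against 431.3, 462.3 and 436.2. Its arrays did not overlap, but the difference did not pass, at -0.20 ± 0.17 (SE, limma adjusted p = 0.830). Ccne1, the cyclin of entry into S phase, ran from 130.9 to 184.9 over the 6 arrays with a log2 fold change of 0.07.

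None of the 5 tested probe sets of the kinases and their subunit Cks1b was called by limma, and 0 had an unadjusted p under 0.05. Cdk4 is the partner of the D-type cyclins. Its probe set 160538_at gave 1360.6, 1181.7 and 1577.2 on the high-fat and 1381.3, 1341.7 and 1467.8 on the low-fat diet, a log2 fold change of -0.03 with a 95% interval from -0.34 to 0.28. The high-fat arrays spanned the low-fat ones. Cdk2 94412_at differed by -0.07 (interval -0.52 to 0.38) and Cks1b by -0.03 (interval -0.59 to 0.52).

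Of the kinase inhibitors, Cdkn2c, which holds Cdk4 and Cdk6 inactive, gave 382.6, 476.2 and 392.8 on the high-fat and 450.8, 420.3 and 518.7 on the low-fat diet, with overlapping arrays and a log2 fold change of -0.15 ± 0.18 (SE, limma adjusted p = 0.895). Cdkn1b, which encodes p27, could not be tested: 1 of the 12 values of its 2 probe sets was above the floor, 82.9 on low-fat array 3. E2f1, the activating E2F factor, had 1 probe set under the floor throughout. Its other probe set, 161427_f_at, whose suffix marks probes shared within a sequence family, gave 41.5, 181.6 and 79.5 against 38.0, 65.9 and 108.7. High-fat array 2 stood out, the diets overlapped, and the log2 fold change was 0.32 ± 0.39 (SE, limma adjusted p = 0.899).

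In the replication group 0 of 11 tested probe sets of 8 genes were called by limma, 1 had an unadjusted p under 0.05, and log2 fold changes ran from -0.76 to 0.84. No probe set of the Mcm2 to Mcm7 helicase passed, and differences between the subunits were not tested. Mcm4 gave 205.6, 183.9 and 189.9 on the high-fat arrays and 90.4, 166.6 and 135.9 on the low-fat arrays. It was higher on each high-fat array than on any low-fat array, with a log2 fold change of 0.60 ± 0.29 (SE) that did not pass (limma adjusted p = 0.595). Without low-fat array 1 it was 0.36, and with the floor at the 50th percentile 0.09.

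Mcm5 had 2 probe sets with opposite differences. Probe set 100156_at gave 65.5, 171.8 and 217.6 on the high-fat diet and 62.7, 93.7 and 67.7 on the low-fat diet, a log2 fold change of 0.84 ± 0.42 (SE, limma adjusted p = 0.611), and 1.34 without high-fat array 1. Only 3 of its 6 arrays were above the floor. Probe set 162102_r_at, whose suffix marks relaxed rules of probe choice, gave 66.5, 60.1 and 74.5 against 183.0, 95.5 and 99.0, a log2 fold change of -0.76 ± 0.30 (SE, adjusted p = 0.481), and -0.46 without low-fat array 1. Neither passed, and both were at the floor on some arrays, so no direction is given for Mcm5.

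The remaining helicase genes had overlapping diets. Mcm2 gave 187.3, 275.9 and 143.0 on the high-fat and 191.5, 277.1 and 83.4 on the low-fat diet, where the arrays numbered 2 were the highest and those numbered 3 the lowest of each diet. Mcm7 differed by -0.28 ± 0.29 (SE), and the 2 probe sets of Mcm3 by 0.12 and -0.09. Pcna, the sliding clamp of the polymerases, gave 495.1, 429.0 and 574.3 against 400.5, 539.7 and 676.6 (log2 fold change -0.09 ± 0.22, SE, limma adjusted p = 0.963), with the low-fat arrays on both sides of the high-fat ones. The licensing factor gene Cdc6 differed by 0.02 ± 0.26 (SE). The DNA ligase gene Lig1 had the largest standard error of the tested members: 92551_at gave 68.3, 180.9 and 250.0 against 256.1, 216.3 and 72.7, each diet spanning over 3-fold, with a log2 fold change of -0.12 ± 0.58 (SE).

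Among the genes of mitosis and chromosomes, 0 of 7 tested probe sets of 5 genes were called by limma and 0 had an unadjusted p under 0.05, with log2 fold changes from -0.26 to 0.14. Plk1, a kinase of mitotic entry, had 3 tested probe sets, all with suffixes for shared probes. Of these, 161292_f_at gave 236.9, 421.8 and 339.4 on the high-fat and 360.2, 279.2 and 276.4 on the low-fat diet, with a log2 fold change of 0.10 ± 0.26 (SE, adjusted p = 0.965), and 101350_g_at differed by -0.26. The order of the arrays differed between these probe sets: high-fat array 2 was the highest in the first and low-fat array 2 in the second. Cdc20, an activator of the anaphase-promoting complex, gave 247.4, 258.5 and 321.5 against 225.6, 265.8 and 263.7, a log2 fold change of 0.13 ± 0.22 (SE, adjusted p = 0.940). Its values were close on 5 arrays and higher on high-fat array 3.

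Mki67, the common marker of cycling cells, had a probe set with the suffix for relaxed rules above the floor on all arrays, from 101.2 to 185.0, with a log2 fold change of -0.02. Its other probe set, 99457_at, was above the floor on low-fat array 2 alone, at 82.9. Aurka, a spindle pole kinase, gave 132.5, 23.9 and 121.0 against 129.0, 95.5 and 26.9, so that 1 array of each diet lay under the floor. Stmn1, which binds free tubulin, gave 385.5, 203.9 and 245.1 against 320.9, 383.6 and 116.6 on 97909_at (log2 fold change 0.14 ± 0.45, SE), while 97910_at was under the floor throughout. In each of these genes the arrays of the diets overlapped.

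Over the 8 member genes with more than 1 tested probe set, the log2 fold changes had the same sign in 3 (Ccnd1, Cdk4 and Lig1) and opposite signs in 5 (Cdk2, Mcm3, Mcm5, Tk1 and Plk1). In Cdk2, Mcm3 and Plk1 the values ran only from -0.26 to 0.12.

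The arrays of a diet did not behave alike. High-fat array 1 was the lowest of the 6 in 10 of the 26 tested member genes (38.5%), against 17.4% of all genes, and low-fat array 1 in 8 (30.8%), against 18.7%. The 10 include Ccna2, where high-fat arrays 1 and 2 tied at 77.4. Ranks used values before flooring, so some, as for E2f1 and Mcm5, were set under the floor, where no order can be read. High-fat array 3 was the lowest in 0 members, against 16.5% of all genes, and the highest in 6 (23.1%), against 19.9%. Median deviations of the member genes from their mean over the 6 arrays were -0.15 on high-fat array 1 and 0.11 on high-fat array 3, with 0.01 to 0.05 on the other 4 arrays. For all genes they lay between -0.01 and 0.03. The spread within the high-fat diet was therefore wider than the members' median diet difference, and without high-fat array 3 that median was -0.14.

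**Figure D4:**
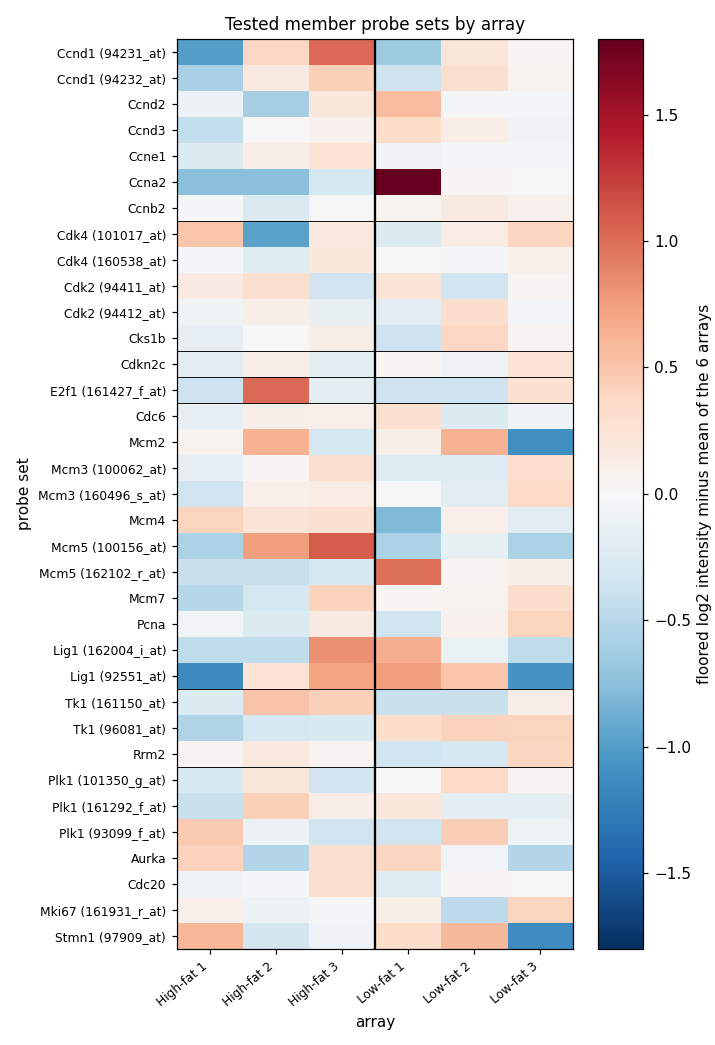
Floored log2 intensity minus the mean of the 6 arrays for the 35 tested member probe sets (rows, by role) on each array (columns), red above and blue below the mean. Tk1 96081_at is blue on all 3 high-fat arrays and red on all 3 low-fat arrays, while Ccnd1 94231_at and Lig1 92551_at are both red and blue within a diet.

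Further genes of the pathway, from lists of replication, regulation and mitosis, gave 0 calls by limma, against 0.827% of all probe sets. At an unadjusted p under 0.05, 9.07% of all probe sets passed, 4.82% as higher and 4.26% as lower. In replication 0 of 26 tested probe sets had an unadjusted p under 0.05, and the median of 23 genes was 0.04. Those with the smallest p were Fen1, the flap endonuclease of lagging-strand synthesis, at 0.54 ± 0.26 (SE, adjusted p = 0.600), and Rfc2, a clamp loader subunit, at 0.24 ± 0.17 (SE, adjusted p = 0.765). In regulation 2 probe sets of 24 were higher and 1 lower at an unadjusted p under 0.05, and the median of 21 genes was 0.05. In mitosis 2 of 26 were lower and 0 higher, with a median of -0.01 over 23 genes.

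Wee1, the kinase that restrains Cdk1 and is also a rhythmic liver transcript, gave 58.7, 102.9 and 87.7 on the high-fat and 154.7, 146.6 and 237.0 on the low-fat arrays. The diets did not overlap, and the log2 fold change of -1.04 ± 0.29 (SE) did not pass (limma adjusted p = 0.253). Ccng2, a cyclin linked to arrest, gave 463.9, 418.8 and 444.5 against 282.8, 290.1 and 351.9, higher on every high-fat array but not called (0.53 ± 0.19, SE, adjusted p = 0.403). The other probe set higher at an unadjusted p under 0.05, named after its values were seen, was of Cdkn1a, the inhibitor p21, at 0.84 ± 0.36 (SE, adjusted p = 0.532) with overlapping arrays. Ube2c, the ubiquitin-conjugating enzyme of the anaphase-promoting complex, gave 76.2, 97.8 and 103.4 against 182.4, 141.3 and 274.7 on a probe set with the suffix for relaxed rules. It was lower on every high-fat array, at -1.07 ± 0.31 (SE, adjusted p = 0.261). Cdca3, a regulator of mitotic entry, was at -0.66 ± 0.27 (SE, adjusted p = 0.495) on a probe set with a suffix for shared probes. Its arrays gave 95.1, 70.7 and 55.9 on the high-fat and 103.5, 149.9 and 116.6 on the low-fat diet, with 55.9 under the floor.

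The samples carried the markers of liver, with the albumin gene Alb from 34920.4 to 49244.8 on all arrays. Among the hepatocyte markers the smallest p was that of Tat, a tyrosine aminotransferase, at 13796.7, 9815.4 and 10582.1 on the high-fat and 18010.4, 19399.7 and 21257.6 on the low-fat diet. It was lower on every high-fat array and not called (log2 fold change -0.79 ± 0.16, SE, limma adjusted p = 0.0742). Macrophage markers differed between the diets in summed intensity. All 10 tested genes were above 0, against 51.3% of all genes, with a median log2 fold change of 0.39. Of their 12 tested probe sets 0 were called by limma, and 4 were higher at an unadjusted limma p under 0.05, against 4.82% of all probe sets. Their summed intensity was 10454 to 12178 on the high-fat and 7574 to 9123 on the low-fat arrays, and none of the 11 genes was under the floor throughout. The macrophage probe set with the smallest p was that of Mpeg1 (0.89 ± 0.18, SE, adjusted p = 0.0742). The part of these markers and of RNA quality in the Tk1 difference was not tested. Summed intensities overlapped between the diets for markers of hepatocytes, lymphocytes (2261 to 3115 against 2447 to 2800, with Cd3d and Cd8a under the floor throughout), erythroid cells, endothelium, stellate cells and bile duct. Sums can hide single probe sets. At an unadjusted limma p under 0.05, 1 of 9 stellate probe sets was higher, against 4.82% of all. On the lower side were 1 of 4 erythroid and 1 of 9 hepatocyte probe sets, against 4.26% of all. Lymphocyte, endothelial and bile duct markers had 0, and only 1 of 7 bile duct probe sets was tested. As a sign of RNA quality, the 3' over 5' ratio of the Gapdh control ran from 0.89 to 1.23 on high-fat and from 0.82 to 1.07 on low-fat arrays. That of the Actb control ran from 1.62 to 1.96 and from 1.56 to 1.75.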

How the data were processed

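Liver RNA was measured on 3 arrays per diet, grouped by their titles. The deposited values are linear intensities; no source used here gives the authors' software or background correction. In the deposited table the mean after trimming 2% of probe sets at each end was 499.9 to 500.2 on every array, so whole arrays had been scaled, and a change of most transcripts in one direction cannot be seen. Array medians ran from 171.45 to 188.4. The platform's gene table named 10855 probe sets with 1 symbol and 396 with several, and 1237 were not listed. All 50 member probe sets kept their symbol by gene ID in RefSeq's table. Values were floored at 68.9 and log2 was taken. Leaving out 66 control probe sets, 8950 were fitted with limma 3.58.1 in R 4.3.3 (lmFit, eBayes with trend). Exact permutation tests used scipy 1.17.1. The method was tested on simulated data. The members, lists and settings were chosen with earlier results of these data known. Every member is accounted for. Full values are given for members past the threshold, the 6 with the smallest p, the member of each role with the highest mean, and part of their families. In each list of other cell cycle genes the 2 with the smallest p are given; marker lists are given by counts and sums, with single markers named after their values were seen. Alternatives changed the normalization, floor, filter, variance model, array weights, replicate block, threshold, probe sets and the arrays used.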

Additional observations from a re-analysis of the deposited data

How the results depend on the processing

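The Tk1 96081_at call was kept under 10 of 18 refitted alternatives and lost under 8, with its sign kept in all 18. Member calls numbered 0 without a filter, 0 without the variance trend and 0 with each array left out. Calls over all probe sets numbered 8 without a filter, 20 without the trend, 120 at an adjusted p of 0.10 and 26 to 75 with an array left out (high-fat array 2: 28, low-fat arrays 1, 2 and 3: 31, 26 and 45). The members' median was -0.14 to 0.00 with an array left out. The difference between the diet effects of the 2 Tk1 probe sets was -1.73 without a floor or with a floor at the 10th percentile, -0.76 with the floor at the 50th, where all of 161150_at lies at the floor, and -1.39 to -1.11 with an array left out. None of the 8 tested probe sets of Tk1, Ccna2, Mcm4, Mcm5, Ccnd3 and Ccnb2 changed sign in an alternative that tested it. The labels do not say that a replicate number pairs arrays. Deviations of same-numbered arrays correlated at 0.07, 0.11 and 0.31, not all over 0.1, and those of the other 6 pairs from -0.21 to 0.11, with 4 below 0. High-fat arrays 2 and 3 correlated best with their own number and high-fat array 1 with low-fat array 2. Deviations from a diet's mean sum to 0, so correlations on both sides of 0 were fixed in advance. These values cannot settle whether arrays are paired. With the replicate number as a block the calls numbered 103, with Tk1 96081_at at an adjusted p of 0.0369. The causes were not tested. Signal over background limits the 8 untested genes.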
